A study of Mus musculus with 10 samples.

Results

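The genes described here are 8 genes of cholesterol supply, chosen by symbol from 47069 genes in the deposited table: Hmgcs1, Idi1 and Fdps of the mevalonate pathway, Sqle and Lss, which take squalene to lanosterol, Cyp51 and Ebp of the late sterol steps, and Insig1, which holds back the activation of the pathway. All 8 had enough reads to be among the 16179 genes tested. RNA-seq had been run on 10 libraries of mouse intestinal organoids, cultures of crypts in Matrigel with Noggin, EGF and R-spondin 1, after 50 days. The animals, of strain C57BL/6, carried Lgr5-EGFP-CreERT2 and Ppp2r1a flox/flox, as the study describes. There were 5 groups of 2 libraries. Control received saline, DMBA received the carcinogen DMBA, TAM short and TAM long received tamoxifen, and DMBA+TAM received both agents. The labels call TAM short and TAM long dosage-sensitive, and the sources used here do not say what this, short or long mean. An S stands in the names of the control and TAM short libraries and an L in those of DMBA and TAM long, whose labels both carry the word long. The TAM short and TAM long names also begin with DSS and those of DMBA+TAM with Lgr5, without further explanation.

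The CreERT2 is driven by Lgr5, a gene of crypt stem cells, so that tamoxifen can start the deletion of Ppp2r1a in Lgr5+ cells. Ppp2r1a encodes the scaffold subunit A alpha of the phosphatase PP2A. No group here received tamoxifen without the floxed allele, and the effect of the drug and the loss of the gene cannot be told apart. Nor is there a saline library among those with an L. Nothing in the labels says that the 2 libraries of a group came from separate animals or cultures, so that p-values measure only the spread between these libraries. With 2 against 2, an exact permutation test cannot give a two-sided p below 0.333, and the tests below therefore come from a single edgeR quasi-likelihood fit over all genes, except where another setting is named.

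Cells make cholesterol from acetyl-CoA through mevalonate, isoprenoid units, squalene and lanosterol and also take it up as lipoprotein. When sterol in the endoplasmic reticulum is low, SCAP brings the transcription factor SREBP2 to the Golgi, where it is cut and freed to raise transcription of nearly every enzyme of the route. INSIG proteins keep SCAP in place when sterol is plentiful, and Insig1 is itself a target of SREBP. Oxysterols act the other way through LXR, which raises the exporters Abca1, Abcg5 and Abcg8. The small intestine both makes cholesterol and absorbs it from food through Npc1l1.

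Since the genes moved together in these libraries, their promoters are shown. RefSeq promoters on GRCm38.p6, each 300 bases from 250 before to 50 after the start site, were found for 6 of the 8 genes (Hmgcs1, Idi1, Lss, Cyp51, Insig1 and Ebp). Each was searched on both strands for a sterol regulatory element (TCACNCCAC), the NF-Y motif (CCAAT, or ATTGG on the other strand) and the Sp1 motif (GGGCGG, or CCGCCC), none of which overlapped another. The sterol regulatory element letters were found in 1 of the 6, that of Hmgcs1, against 1.24% of 32851 promoters. A wider set of 36 promoters of 28 genes of cholesterol synthesis, sensing and uptake includes these 6. The Hmgcs1 promoter was also the only 1 of the 36 with these letters. CCAAT was in 6 of 6 against 37.4% of all, and GGGCGG in 6 of 6 against 35.7%. Of the 36 pathway promoters, 22 held CCAAT and 25 GGGCGG, with the 6 included in both counts. The 4 printed here are Hmgcs1, with the sterol element, Lss and Cyp51, which like it were higher in TAM short, and Ebp, which did not pass that test. Matches are in capitals. They lie at chr13:119690101-119690400 (plus strand) for Hmgcs1, chr10:76531355-76531654 (plus strand) for Lss, chr5:4104648-4104947 (minus strand) for Cyp51 and chrX:8193463-8193762 (minus strand) for Ebp.
Hmgcs1: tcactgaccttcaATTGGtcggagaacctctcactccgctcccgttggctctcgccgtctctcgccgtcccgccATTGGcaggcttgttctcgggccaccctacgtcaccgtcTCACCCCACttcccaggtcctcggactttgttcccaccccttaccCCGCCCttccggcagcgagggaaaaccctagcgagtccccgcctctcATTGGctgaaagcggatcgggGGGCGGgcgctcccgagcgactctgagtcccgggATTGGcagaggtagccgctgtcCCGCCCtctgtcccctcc
Lss: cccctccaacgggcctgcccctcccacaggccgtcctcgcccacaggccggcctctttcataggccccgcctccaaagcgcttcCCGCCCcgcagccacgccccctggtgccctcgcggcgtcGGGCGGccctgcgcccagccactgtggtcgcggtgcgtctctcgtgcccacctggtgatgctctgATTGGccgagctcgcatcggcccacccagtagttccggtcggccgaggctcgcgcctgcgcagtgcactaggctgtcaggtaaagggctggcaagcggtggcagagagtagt
Cyp51: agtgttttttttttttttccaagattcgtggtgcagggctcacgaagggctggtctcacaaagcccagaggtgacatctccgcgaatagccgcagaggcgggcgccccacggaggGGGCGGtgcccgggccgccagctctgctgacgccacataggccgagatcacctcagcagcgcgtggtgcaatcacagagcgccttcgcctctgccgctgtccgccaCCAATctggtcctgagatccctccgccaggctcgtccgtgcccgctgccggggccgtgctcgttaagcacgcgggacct
Ebp: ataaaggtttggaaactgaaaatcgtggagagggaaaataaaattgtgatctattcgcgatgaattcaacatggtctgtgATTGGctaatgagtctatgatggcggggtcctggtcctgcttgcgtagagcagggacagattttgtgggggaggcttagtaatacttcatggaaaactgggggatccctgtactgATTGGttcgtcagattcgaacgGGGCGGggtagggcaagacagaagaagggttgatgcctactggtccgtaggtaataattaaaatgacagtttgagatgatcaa
In the Hmgcs1 promoter the sterol element begins at offset -137 from the start site, between CCAAT letters on the minus strand at -176 and Sp1 letters on the minus strand at -92. Cyp51 has CCAAT at -29 and GGGCGG at -135, and Ebp has CCAAT on the minus strand at -170 and -55 and GGGCGG at -33. A match describes letters and does not show that a factor binds there, and these libraries hold no measure of binding.

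Totals ran from 8828247 to 10923673 counts in 8 libraries, and were 1592366 and 1915270 in DMBA+TAM, where 3 counts are worth 1.58 and 1.32 normalized CPM (counts scaled to a common TMM library size) against 0.259 to 0.379 elsewhere. Ppp2r1a was not lower in any tamoxifen group than in control, with 123 and 129 normalized CPM in control, 131 and 147 in TAM short, 169 and 157 in TAM long, and 129 and 133 in DMBA+TAM. Counts over the whole gene do not show a deletion of internal exons, so the labels are not checked by it, and groups are named below as labelled. The 10 epithelial markers (Epcam, keratins, Vil1 and others) summed to between 16790 and 26800 normalized CPM in the other 8 libraries and to 41.7 and 27.8 in DMBA+TAM, in which Epcam stood at 1.58 and 1.32 and Cdh1 at 2.64 and 3.97. The defining markers of the labelled intestinal organoid were thus near the detection floor in that group. DMBA+TAM libraries held 32750 and 33570 normalized CPM of 10 fibroblast markers (at most 2420 elsewhere) and 6947 and 6584 of 8 macrophage markers (at most 362 elsewhere). Small intestine markers summed to 19810 to 41050 in control and TAM short and to 309 to 968 in DMBA and TAM long, whereas colon markers summed to 491 to 851 and 3817 to 13530. In bulk RNA, fewer cells of a type and less RNA per cell cannot be told apart.

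Across the 8 genes the pattern was the same at both ends. Both TAM short libraries were above all 8 other libraries for 8 of 8 genes, which held for 8.76% of all genes tested, and both DMBA+TAM libraries were below all others for 8 of 8, against 29.9% of all genes. The summed level of the 8 genes was 1074 and 1087 normalized CPM in control, 2473 and 2649 in TAM short, 888 and 1478 in DMBA, 873 and 1211 in TAM long, and 250.2 and 180 in DMBA+TAM. Control, DMBA and TAM long thus overlapped, with replicate 1 the lower of the pair in both L groups.

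**Figure D1:**
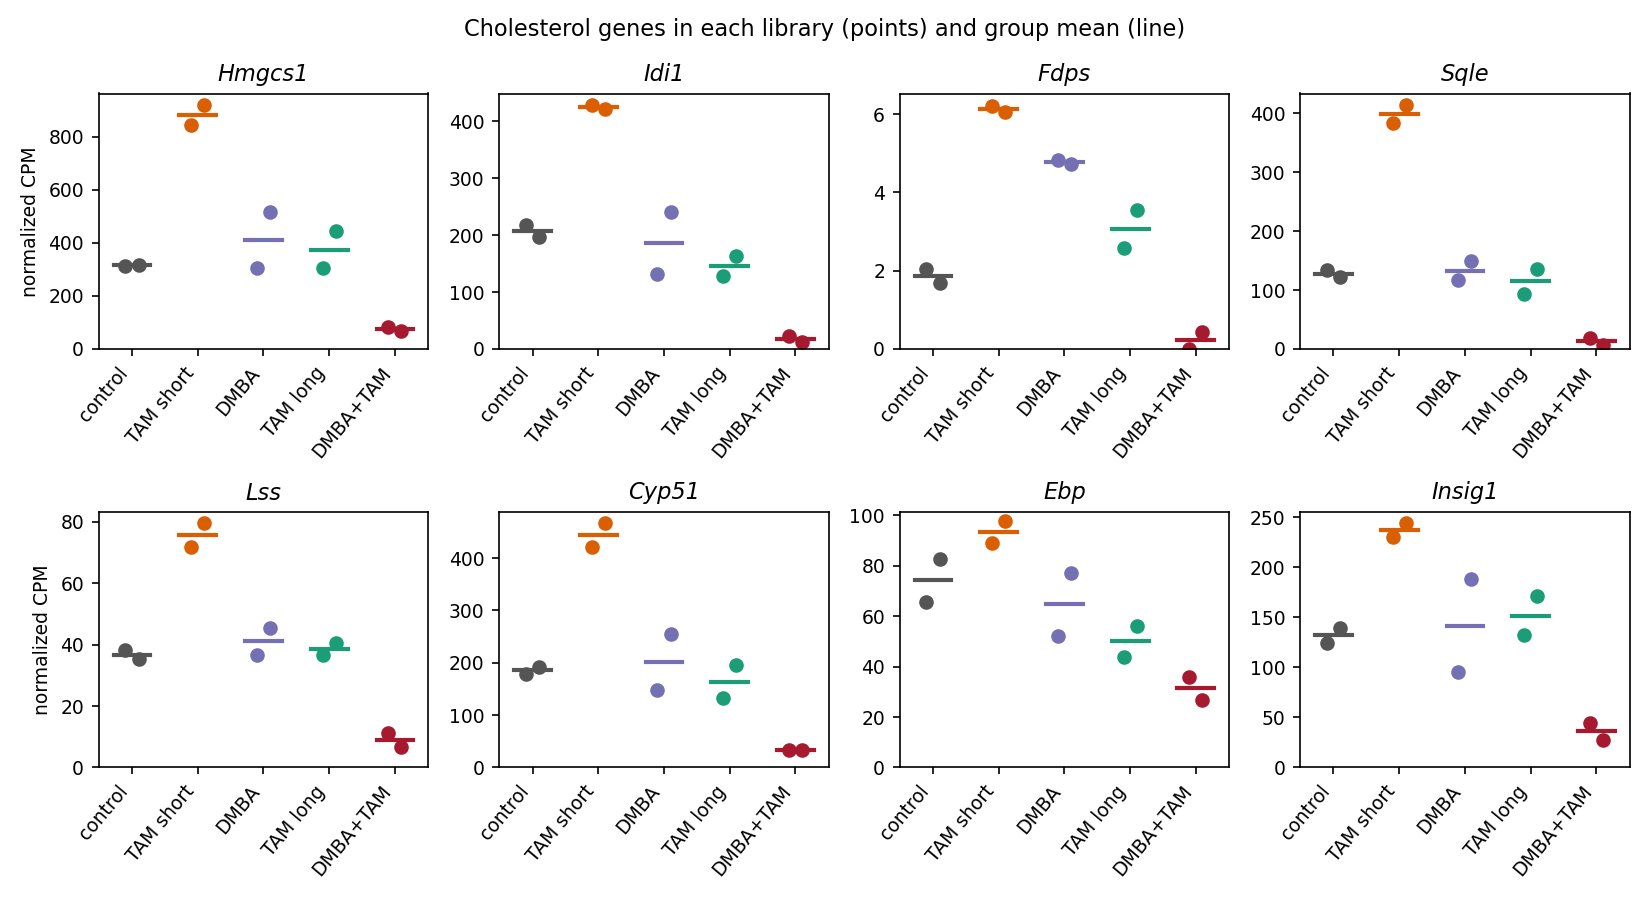
Normalized CPM of the 8 cholesterol genes in each of 10 libraries (points) with the mean of the 2 libraries of a group (line), on a linear axis from 0. TAM short is above and DMBA+TAM below every other library in all 8 panels, and the points of DMBA and TAM long overlap except for Fdps.

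Hmgcs1 encodes the cytosolic HMG-CoA synthase, an early enzyme of the route (ENSMUSG00000093930, chromosome 13, 119690462 to 119708086, plus strand). It had 314 and 317 normalized CPM in control, 843 and 920.5 in TAM short, 303 and 518 in DMBA, 304 and 444 in TAM long, and 82.9 and 66.1 in DMBA+TAM. TAM short was 2.79-fold above control (log2 fold change 1.48, SE 0.26, edgeR adjusted p = 0.00459), and DMBA+TAM 4.24-fold below it (log2 fold change -2.09, SE 0.27, edgeR adjusted p = 8.16e-05). The 2 DMBA libraries bracketed both TAM long libraries.

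Idi1, the isomerase that turns isopentenyl into dimethylallyl diphosphate (ENSMUSG00000058258, chromosome 13, 8885501 to 8892451, plus strand), had 217 and 196 normalized CPM in control and 428 and 421 in TAM short. The other groups had 131 and 241 (DMBA), 128 and 164 (TAM long), and 22.7 and 11.5 (DMBA+TAM). TAM short was 2.06-fold above control (log2 fold change 1.04, SE 0.29, edgeR adjusted p = 0.0388). Idi1 was 12.3-fold lower in DMBA+TAM than in control (log2 fold change -3.62, SE 0.35, edgeR adjusted p = 1.1e-05).

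Fdps, the synthase of farnesyl diphosphate, from which sterols and prenyl groups are made (ENSMUSG00000059743, chromosome 3, 89093588 to 89101959, minus strand), was counted with few reads: 18 and 14 counts in control, 55 and 48 in TAM short, 54 and 42 in DMBA, 30 and 36 in TAM long, and 0 and 1 in DMBA+TAM. In normalized CPM these are 2.04 and 1.69, 6.21 and 6.06, 4.82 and 4.72, 2.59 and 3.54, and 0 and 0.441. Fdps was the single gene of the 8 whose 5 groups had no overlap, in the order TAM short, DMBA, TAM long, control and DMBA+TAM. Against control it rose 3.27-fold in TAM short (log2 fold change 1.71, SE 0.35, edgeR adjusted p = 0.0101) and 2.55-fold in DMBA (log2 fold change 1.35, SE 0.35, edgeR adjusted p = 0.00988). With 1 count in all of DMBA+TAM, the ratio of control to DMBA+TAM was 7.77 with a 95% counting interval (exact Clopper-Pearson) from 1.3 to 316, and that of TAM short 25.6 (4.49 to 1020). These intervals cover counting error only. In GENCODE M21, 26.7% of the exonic bases of Fdps are shared with Gm43738 on the same strand (chromosome 3, 89081939 to 89101099), which has 0 counts over all 10 libraries. How reads in both genes were counted is not given in the sources used here, and the level of Fdps is uncertain. For Idi1 and Hmgcs1, 25.3% and 11.6% of their 50-base stretches, matched on either strand, occur in other annotated genes, which can share their reads. These stretches are not all copies elsewhere. Idi1 shares 323 exonic bases with Gm48574 and Hmgcs1 557 with Gm48342, both on the opposite strand of the same locus.

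Sqle encodes squalene epoxidase, which adds oxygen to squalene and is a rate-limiting step (ENSMUSG00000022351, chromosome 15, 59315077 to 59331192, plus strand). It had 133 and 123 normalized CPM in control, 383 and 413 in TAM short, 118 and 148 in DMBA, 94.0 and 136 in TAM long, and 18.5 and 7.05 in DMBA+TAM. It was 3.11-fold higher in TAM short than in control (log2 fold change 1.64, SE 0.27, edgeR adjusted p = 0.0035) and 10.3-fold lower in DMBA+TAM (log2 fold change -3.36, SE 0.34, edgeR adjusted p = 1.37e-05). Control, DMBA and TAM long overlapped in turn.

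Lss, lanosterol synthase, closes the ring system (ENSMUSG00000033105, chromosome 10, 76531588 to 76557138, plus strand). Normalized CPM was 38.2 and 35.3 in control, 71.9 and 79.5 in TAM short, 36.7 and 45.4 in DMBA, 36.7 and 40.6 in TAM long, and 11.1 and 6.61 in DMBA+TAM. The rise in TAM short over control was 2.06-fold (log2 fold change 1.04, SE 0.17, edgeR adjusted p = 0.00311), and the fall in DMBA+TAM 4.22-fold (log2 fold change -2.08, SE 0.23, edgeR adjusted p = 2.41e-05).

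Cyp51, the cytochrome P450 that demethylates lanosterol (ENSMUSG00000001467, chromosome 5, 4081145 to 4104746, minus strand), had 179 and 192 normalized CPM in control, 421.5 and 466.5 in TAM short, 148 and 256 in DMBA, 132 and 195 in TAM long, and 34.3 and 33.5 in DMBA+TAM. It was 2.39-fold higher in TAM short than in control (log2 fold change 1.26, SE 0.25, edgeR adjusted p = 0.00915) and 5.47-fold lower in DMBA+TAM (log2 fold change -2.45, SE 0.28, edgeR adjusted p = 3.33e-05). The 2 DMBA libraries lay further apart than those of control and enclosed them.

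Ebp, the sterol isomerase of the late route (ENSMUSG00000031168, chromosome X, 8185329 to 8193512, minus strand), had the smallest change of the 8 in TAM short and in DMBA+TAM against control. Its normalized CPM was 65.8 and 82.9 in control, 89.0 and 97.8 in TAM short, 52.2 and 77.2 in DMBA, 44.0 and 56.0 in TAM long, and 35.9 and 26.9 in DMBA+TAM. TAM short was 1.26-fold above control, which did not pass (log2 fold change 0.33, 95% interval -0.14 to 0.80, edgeR adjusted p = 0.339; 0.0291 in a fit of only these 2 groups), whereas DMBA+TAM was 2.38-fold below it (log2 fold change -1.25, SE 0.24, edgeR adjusted p = 0.00113).

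Insig1 (ENSMUSG00000045294, chromosome 5, 28071363 to 28078662, plus strand) had 124.5 and 140 normalized CPM in control, 231 and 244 in TAM short, 94.9 and 188 in DMBA, 132 and 171 in TAM long, and 44.9 and 27.8 in DMBA+TAM. The 1.80-fold difference between TAM short and control did not pass (log2 fold change 0.85, 95% interval 0.19 to 1.499, edgeR adjusted p = 0.0842). It passed with DESeq2 (adjusted p = 0.0309), under library size scaling (0.0404), with no filter (1.88e-06) and in a fit of only these 2 groups (1.75e-05), and adjusted p was 0.0631 to 0.337 in the other settings. The 3.66-fold difference between DMBA+TAM and control did (log2 fold change -1.87, SE 0.33, edgeR adjusted p = 0.000646).

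Levels of different genes can be compared only per length. On the deposited FPKM scale (fragments scaled by length and library size, not TMM scaled), the order in control was Idi1 with 149 ± 14.3 (SD, n = 2), Cyp51 with 105.6 ± 2.90, Hmgcs1 with 82.5 ± 1.44, Insig1 with 64.6 ± 3.68, Ebp with 63.3 ± 8.76, Sqle with 38.9 ± 3.26, Lss with 11.2 ± 0.898 and Fdps with 1.34 ± 0.21. Insig1 and Ebp overlapped, and the other neighbours did not. In TAM short Sqle, at 129 ± 6.65 FPKM, stood above Insig1 (124 ± 4.88) and Ebp (84.7 ± 5.48), with Sqle and Insig1 overlapping. The lengths that these FPKM imply run from 991 bases for Ebp to 3233 for Hmgcs1, and are shorter than the length listed in the table for 7 of the 8 genes.

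The comparison of TAM short with control sets the TAM label against saline in the S libraries, where drug and loss of the gene cannot be told apart. In it 6 of the 8 genes were higher and 0 lower, by 2.06-fold (Idi1) to 3.27-fold (Fdps), against 6.52% of all genes called higher and 7.8% called lower. The median log2 fold change of the 8 was 1.15, against -0.04 over all genes. By log2 fold change Fdps, Sqle and Hmgcs1 were exceeded by 3.43%, 3.75% and 4.26% of all genes and Ebp by 23.1%. The number called depended on the libraries: it was 2 without control replicate 1, 0 without control replicate 2, 4 without TAM short replicate 1 and 2 without TAM short replicate 2, while all 8 log2 fold changes stayed above 0. Without either DMBA+TAM library in the fit, a choice made after seeing the data, it was again 6.

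Markers of other kinds moved in the same comparison. Small intestine markers summed to 37140 and 41050 normalized CPM in control and 22060 and 19810 in TAM short, with 6 of 10 lower and 2 higher. Epithelial markers summed to 22870 and 23720 in control against 26180 and 26800 (1 of 10 higher, 0 lower), fibroblast markers to 1500 and 1361 against 841 and 689 (5 of 10 lower, 1 higher), proliferation genes to 1183 and 1115 against 905 and 852 (1 of 8 lower), and macrophage markers to 183 and 235 against 353 and 318 (2 of 8 higher, 0 lower). Their part in the rise of the cholesterol genes was not tested.

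**Figure D2:**
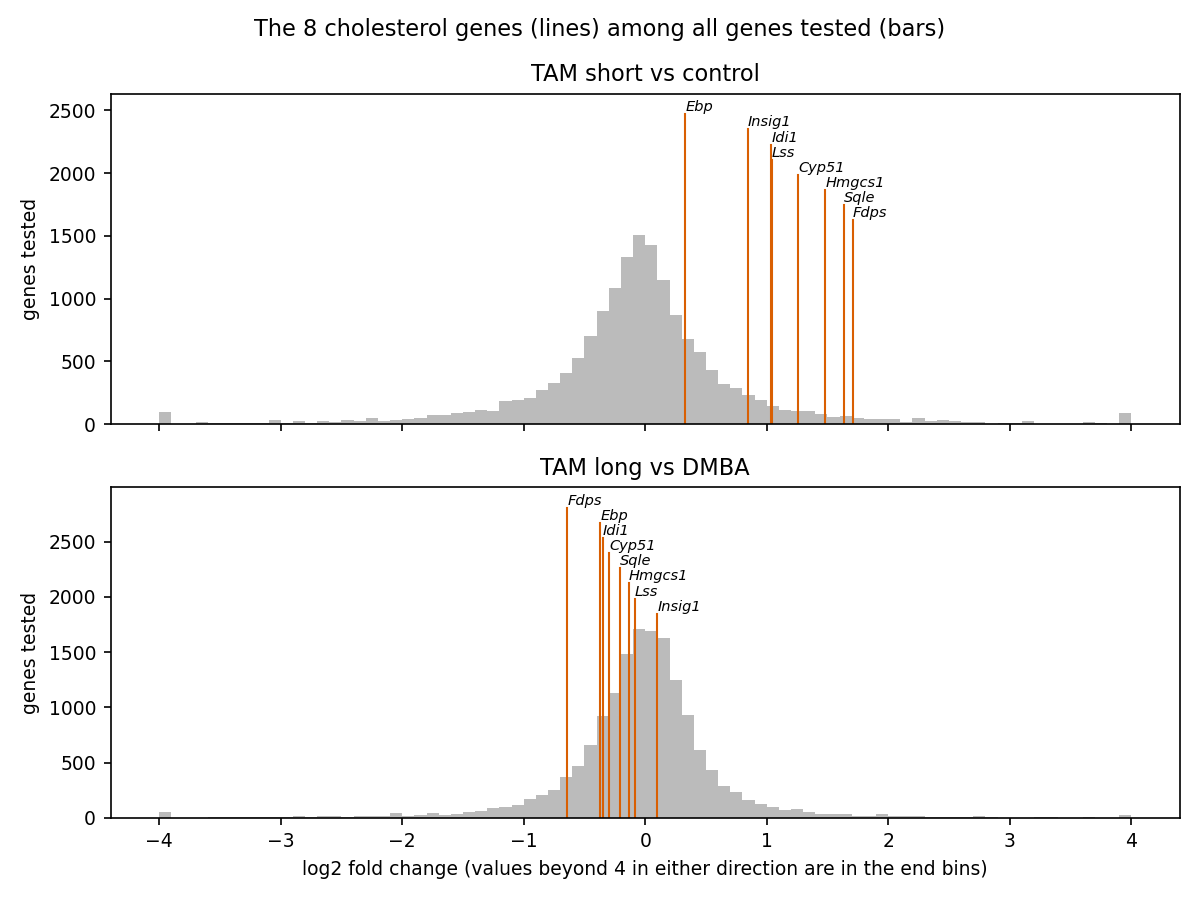
Number of genes tested per bin of 0.1 log2 fold change (bars) with the 8 cholesterol genes as lines, for TAM short against control and TAM long against DMBA. In the upper panel all 8 lie right of 0, from 0.33 (Ebp) to 1.71 (Fdps), and in the lower panel they lie from -0.64 (Fdps) to 0.10 (Insig1).

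The rise in TAM short took in most of the rest of the route, listed from general knowledge of the pathway. Among synthesis genes other than the 8, 11 of 15 tested were higher and 0 lower, with a median log2 fold change of 0.79. Over all genes 6.52% were higher and 7.8% lower, with a median of -0.04. In the mevalonate part 8 of 9 were higher. Among those not described above, Pmvk, phosphomevalonate kinase, rose 2.36-fold (32.6 and 39.9 normalized CPM in control, 86.7 and 84.5 in TAM short), Mvd, the decarboxylase that follows it, 2.73-fold, Acat2 1.61-fold and Mvk 1.37-fold. Ggps1, which leads to geranylgeranyl diphosphate and away from sterols, had a log2 fold change of 0.12 (edgeR adjusted p = 0.673). Idi2 was not tested, with at most 2 counts in a group. Fdft1, squalene synthase, rose 3.06-fold, from 76.9 and 78.4 normalized CPM to 221 and 254, so that 3 of 3 genes between farnesyl diphosphate and lanosterol were higher.

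Against 6.52% of all genes, 6 of 10 in the late sterol list were higher. Beside Cyp51 these included the sterol reductase Tm7sf2 (2.98-fold), the ketosteroid reductase Hsd17b7 (1.96-fold), Dhcr7 (1.65-fold), which reduces a late double bond, and Nsdhl (1.69-fold), which takes part in removing the methyl groups. The sterol oxidase Msmo1 (log2 fold change 0.79, adjusted p = 0.0835), the desaturase Sc5d (-0.12, adjusted p = 0.703), Lbr (0.06, adjusted p = 0.83) and Ebp did not pass. Late steps thus held 4 of the 5 synthesis genes that were tested and not called.

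Of the 6 sensing genes, Insig2 (2.30-fold, from 82.8 and 83.7 normalized CPM in control to 183 and 199) and Srebf2, which encodes SREBP2 (1.69-fold), were higher and 0 lower. Scap, Insig1 and the proteases Mbtps1 and Mbtps2 did not pass. Of all genes 6.52% were higher. Of 10 uptake and transport genes 3 were higher, among them the sterol carrier Stard4, which rose 1.48-fold (310.4 and 267 normalized CPM in control, 424 and 428 in TAM short). Npc1l1, the absorber of dietary cholesterol, had 996 and 998 normalized CPM in control and 819 and 767 in TAM short and did not pass (log2 fold change -0.33, edgeR adjusted p = 0.515).

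The list of LXR and efflux genes went the other way, with 6 of 10 lower and 0 higher, and a median log2 fold change of -0.92. Over all genes 7.8% were lower and 6.52% higher, with a median of -0.04. Cyp27a1, a sterol hydroxylase that makes an LXR ligand, was 4.75-fold lower (98.4 and 98.4 normalized CPM in control, 21.7 and 19.7 in TAM short), Abca1 2.84-fold lower, and Abcg8 2.26-fold lower. Abcg5, Nr1h3, which encodes LXR alpha, and Soat2, which esterifies cholesterol, were lower as well, by 2.15-fold, 1.92-fold and 1.86-fold. Abcg5, Abcg8 and Soat2 are also genes of the small intestinal villus, whose markers were lower in the same libraries, and the part of those cells was not tested.

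**Figure D3:**
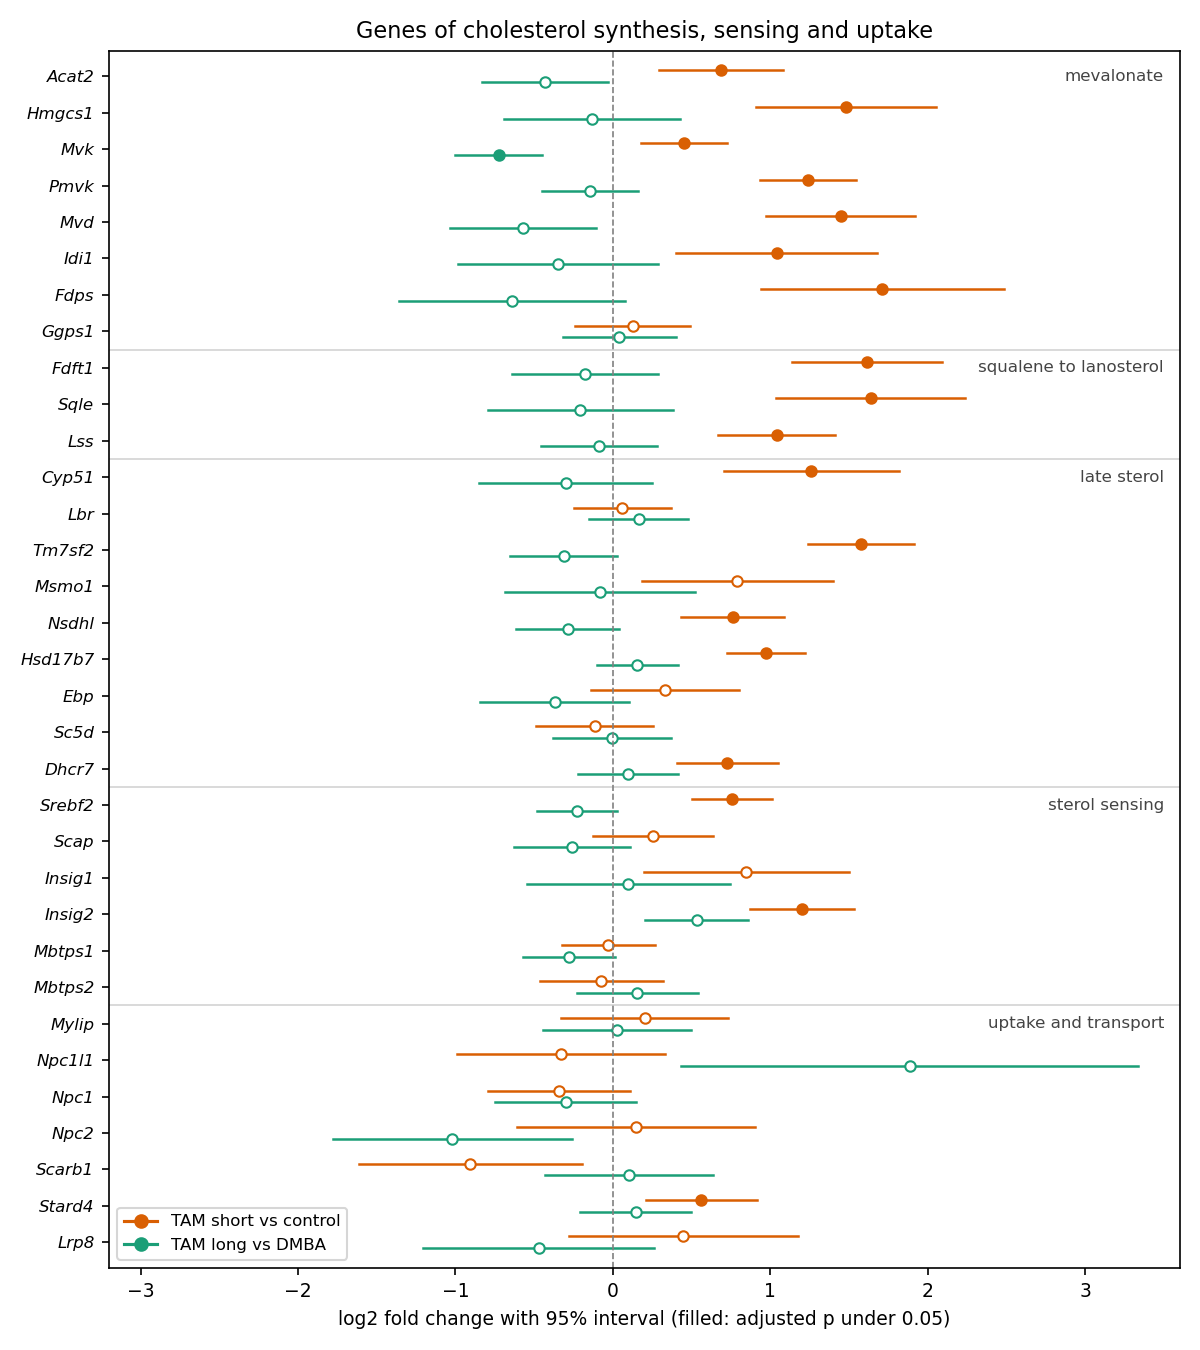
Log2 fold change with its 95% interval for genes of cholesterol synthesis, sensing and uptake, in the order of the route, for TAM short against control (orange) and TAM long against DMBA (green); filled points have an adjusted p under 0.05. Orange points of the synthesis genes are mostly filled and right of 0, while Mvk alone among the genes shown is filled in green.

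TAM long was compared with DMBA because they share the long label and the L. DMBA libraries received the carcinogen and no saline library carries an L, so that the comparison is between agents and not of tamoxifen with an untreated control. None of the 8 genes passed (0 of 8, edgeR; 0 of 8 at an unadjusted p under 0.05; 0 of 8 with DESeq2), where 2.7% of all genes did, 1.46% lower. Log2 fold changes ran from -0.64 (Fdps, 95% interval -1.36 to 0.08) to 0.10 (Insig1, -0.55 to 0.75), with a median of -0.25 against -0.00 over all genes. The intervals exclude a rise as large as the estimate in TAM short for Hmgcs1 (upper bound 0.43), Sqle (0.38), Idi1 (0.29), Fdps (0.08), Lss (0.28), Cyp51 (0.25), Ebp (0.10) and Insig1 (0.75). For Insig1 the margin was small, with an estimate of 0.85 in TAM short. Its log2 fold change against DMBA ran from -0.31 to 0.67 with 1 library left out, so that its exclusion holds for the full fit only. All these bounds take the estimates in TAM short as exact, while that of Ebp has an interval of -0.14 to 0.80. The interaction below carries both errors and did not pass for Idi1, Ebp and Insig1. Replicates differed more in DMBA and TAM long (chi-square per degree of freedom 95.7 and 32.9) than in control and TAM short (9.17 and 6.99). The fit shares its estimate of the spread over groups. TAM long was below DMBA without overlap for Fdps alone, against 24.4% of all genes, and above it for 0 of 8, against 24.2%. Among the other genes of synthesis, sensing and uptake 2 of 30 passed, both lower, among them Mvk (1.65-fold, from 28.6 and 28.6 normalized CPM in DMBA to 17.9 and 16.7 in TAM long). Of the late sterol list 0 of 10 passed, with log2 fold changes from -0.37 (Ebp) to 0.16 (Lbr), among them Tm7sf2 (-0.31), Nsdhl (-0.29), Msmo1 (-0.08), Sc5d (-0.01), Dhcr7 (0.10) and Hsd17b7 (0.15).

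The difference between these changes was tested as an interaction, (TAM long minus DMBA) minus (TAM short minus control). It was below 0 for 8 of 8 genes and passed for 5, against 2.78% of all genes called lower: Fdps (-2.35, SE 0.47, adjusted p = 0.0213), Sqle (-1.84, SE 0.37, adjusted p = 0.0219), Lss (-1.13, SE 0.23, adjusted p = 0.0242), Hmgcs1 (-1.62, SE 0.36, adjusted p = 0.0304) and Cyp51 (-1.56, SE 0.35, adjusted p = 0.0322), on the log2 scale. Idi1 (-1.39, adjusted p = 0.0765), Ebp (-0.70, adjusted p = 0.203) and Insig1 (-0.75, adjusted p = 0.327) did not pass. The count was 0 without control replicate 1 or 2, TAM short replicate 1 or 2, or TAM long replicate 1, 3 without TAM long replicate 2, 5 without DMBA replicate 2 and 8 without DMBA replicate 1. Outside the 8, the interaction was lower for 9 of 15 synthesis genes, led by Mvd (-2.02), Tm7sf2 (-1.89) and Fdft1 (-1.79), and in the sensing list for Srebf2 (-0.98). The 2 comparisons rest on different controls, saline in one and DMBA in the other. S and L libraries also differ in the small intestine and colon markers given above. Whatever short and long stand for, the control agent and the gut segment therefore cannot be told apart.

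The direct comparison of TAM long with TAM short gave 7 of 8 genes lower and 0 higher, where 20.3% of all genes were lower and 22% higher. Sqle was 3.46-fold lower, Idi1 2.91-fold, Cyp51 2.71-fold, Hmgcs1 2.36-fold, Fdps 2.01-fold, Lss 1.96-fold and Ebp 1.87-fold, and Insig1, 1.57-fold lower, did not pass (edgeR adjusted p = 0.0975). Beside them 13 of 15 synthesis genes were lower, among them Tm7sf2 (3.86-fold) and Hsd17b7 (3.51-fold), and in the sensing list Insig2 alone (2.47-fold). Fdps was not called with DESeq2, under library size scaling or without any 1 of the 4 libraries (adjusted p up to 0.195), and Ebp not without TAM short replicate 2 or TAM long replicate 1, so that 5 or 6 of the 8 were called with 1 library left out. Markers differ in the same comparison, with 8 of 10 small intestine markers and 8 of 8 proliferation genes lower in TAM long, and 5 of 6 colon, 6 of 6 smooth muscle and 9 of 10 fibroblast markers higher. Smooth muscle markers summed to 2280 and 1209 normalized CPM in TAM short and 8362 and 12840 in TAM long. The part of these in the fall of the cholesterol genes was not tested.

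DMBA against control gave 1 of 8 genes higher, Fdps, and 0 lower, against 24.5% of all genes called higher and 23.3% lower. The median log2 fold change was 0.11, against 0.07 over all genes. Scaled by library size only, 3 of the 8 were called, without control replicate 2 it was 0, and without DMBA replicate 1 or 2 it was 2. Hmgcs1, Sqle, Cyp51, Insig1 and Idi1 each had a DMBA replicate 1 below and a replicate 2 above both control libraries, so that the spread within DMBA was larger than the difference from control. TAM long against control gave 1 of 8 lower, Ebp (1.49-fold, log2 fold change -0.57, SE 0.21, edgeR adjusted p = 0.0489), against 22.8% of all genes. That call was lost whenever 1 control or TAM long library was left out, with 0 of 8 each time. Of the other synthesis, sensing and uptake genes, 10 of 30 were higher and 7 lower in DMBA than in control. Scarb1, the HDL receptor (3.31-fold), Mylip (2.62-fold), Mvd (1.81-fold), Scap (1.80-fold), Fdft1 (1.65-fold) and Srebf2 (1.60-fold) were higher. Lbr (36.4 and 33.7 normalized CPM against 79.2 and 66.4), Sc5d (59.5 and 72.3 against 138 and 135) and Hsd17b7 (25.2 and 23.7 against 51.5 and 45.9) were lower, and Npc1l1 had 9 counts in all against 17099 in control. In the same comparison 6 of 6 smooth muscle markers were higher (2075 and 1758 normalized CPM in control, 12070 and 7160 in DMBA), as were 8 of 10 fibroblast and 6 of 6 colon markers, while 8 of 8 proliferation genes and 8 of 10 small intestine markers were lower, and their part was not tested.

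**Figure D4:**
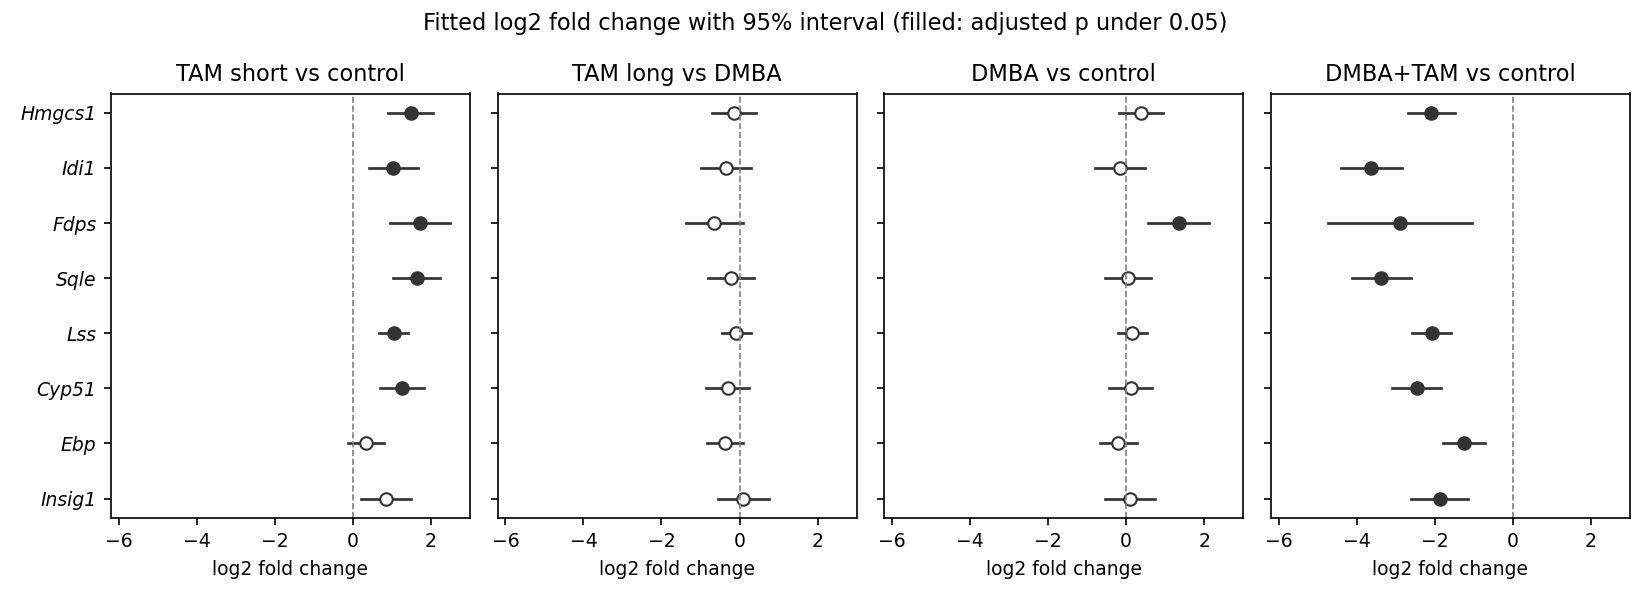
Fitted log2 fold change of the 8 cholesterol genes with 95% intervals in 4 comparisons; filled points have an adjusted p under 0.05. In TAM short 6 of 8 are filled and above 0, in TAM long against DMBA 0 of 8, in DMBA 1 of 8 (Fdps), and in DMBA+TAM 8 of 8 are filled and below 0.

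DMBA+TAM was below every other group in 8 of 8 genes. With control as the reference 35.3% of all genes were called lower, with DMBA 29.9%, with TAM long 29.9% and with TAM short 33.8%. In the same order, the median log2 fold change of the 8 was -2.27, -2.52, -2.30 and -3.64, and that of all genes -0.17, -0.14, -0.14 and -0.14. These 4 comparisons share the same 2 libraries of lowest depth, which differ from each other in 6 skeletal muscle markers, summing to 5.28 normalized CPM in replicate 1 and 7215 in replicate 2 (at most 20.6 elsewhere). Against TAM short the fall ran from 2.99-fold (Ebp) to 31.95-fold (Sqle), with Idi1 at 25.2-fold, Cyp51 at 13.1-fold, Hmgcs1 at 11.9-fold, Lss at 8.68-fold and Insig1 at 6.59-fold. The value of Sqle turned on the library, with a log2 fold change of -5.84 without DMBA+TAM replicate 1 and -4.45 without replicate 2, against -5.00 with both. Against control its log2 fold change was -4.21 without replicate 1. The call of Fdps against control was lost without DMBA+TAM replicate 1 (log2 fold change -2.07, edgeR adjusted p = 0.105) and with DESeq2 (adjusted p = 0.0829). The smallest fall was that of Ebp from TAM long, 1.60-fold (log2 fold change -0.68, edgeR adjusted p = 0.0355), which did not pass under library size scaling, without DMBA+TAM replicate 2 or without TAM long replicate 2. Epithelial markers were lower in 10 of 10, with 5 of them at 3 counts or fewer in DMBA+TAM replicate 1 and 6 in replicate 2, and fibroblast markers were higher in 9 of 10 against control. The part of cell makeup in the fall of the cholesterol genes was not tested.

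The rest of the pathway did not fall evenly in DMBA+TAM, where 35.3% of all genes were lower than in control. Against control, 14 of 15 other synthesis genes were lower, among them Sc5d with a log2 fold change of -3.58 (from 138 and 135 normalized CPM to 14.3 and 8.81) and Msmo1, 11.4-fold lower (from 175 and 189 to 18.5 and 13.7). Ggps1 was the exception, with 19.2 and 18.6 normalized CPM in control beside 22.7 and 16.3 in DMBA+TAM. In the sensing list Insig1, Srebf2 (2.51-fold) and Insig2 (2.20-fold) were lower and Scap (1.40-fold) and Mbtps1 (1.29-fold) higher. The uptake list split, with 5 higher and 4 lower of 10, against 29% of all genes called higher and 35.3% called lower. Scarb1 (11.8-fold), the ubiquitin ligase Mylip (9.90-fold) and Npc2 (3.56-fold) were higher, as was Npc1. Stard4 was 11.9-fold lower, and Npc1l1 had 17099 counts against 1.

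**Figure D5:**
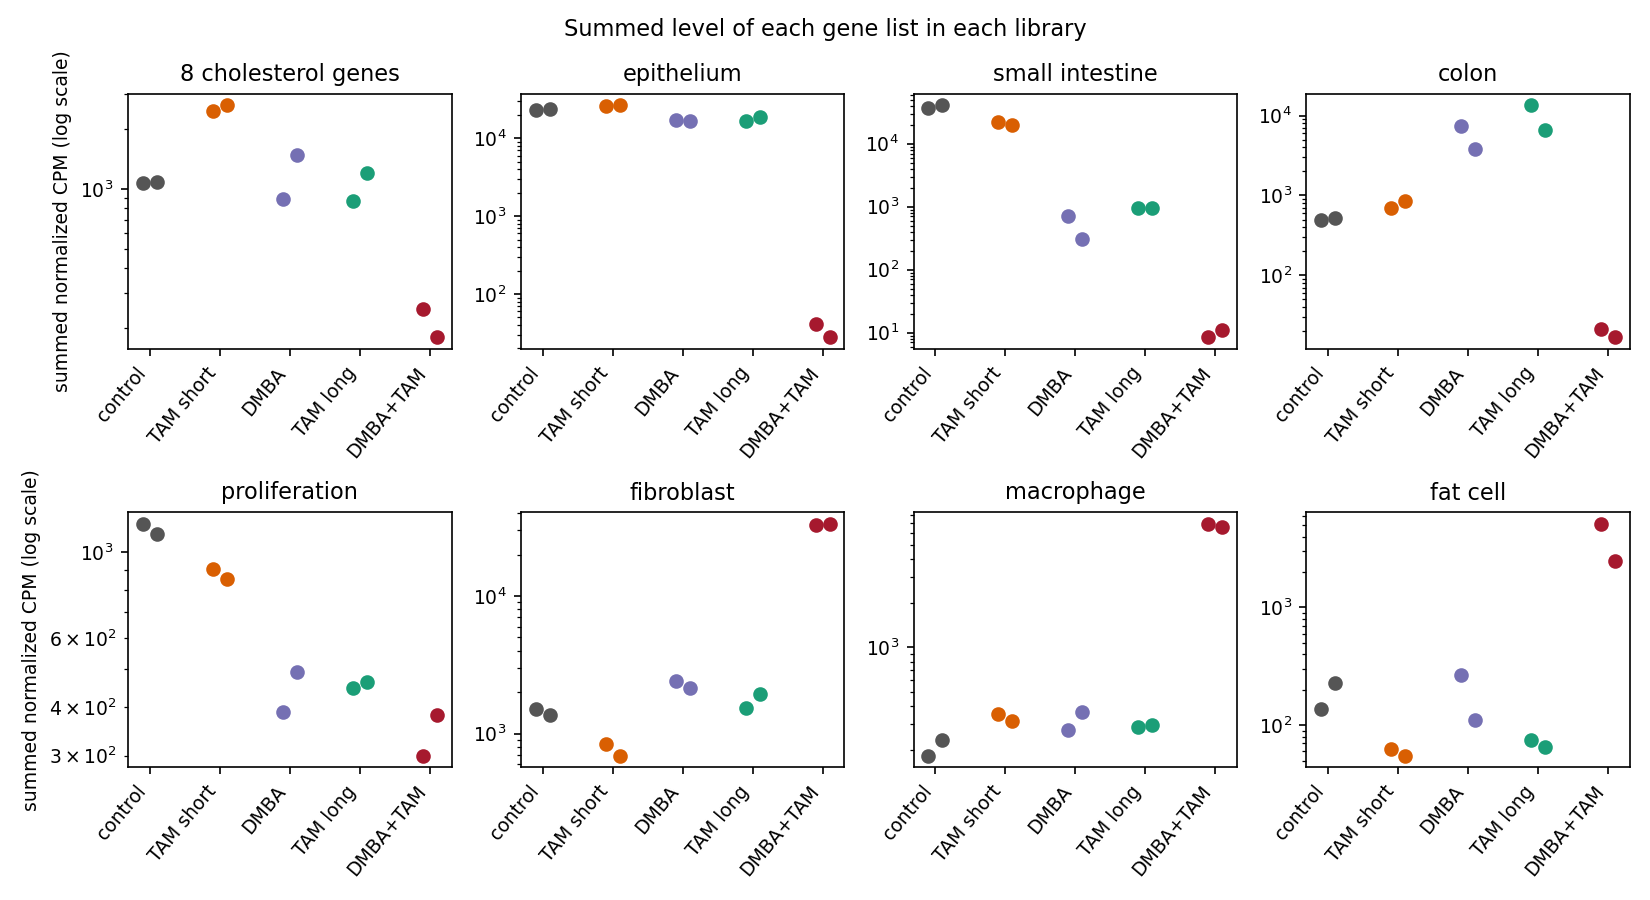
Summed normalized CPM of the 8 cholesterol genes and of 7 marker lists in each library, on log axes that differ between panels. The cholesterol sum peaks in TAM short (2473 and 2649) and is lowest in DMBA+TAM (250.2 and 180), where epithelial markers sum to 41.7 and 27.8 and fibroblast, macrophage and fat cell markers are highest.

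The 8 genes followed each other across libraries. The correlation of log2 normalized CPM between any 2 of them over the 10 libraries, which share the low depth and the cell markers of DMBA+TAM, had a median r of 0.971 and a lowest of 0.742. Over the 8 libraries other than DMBA+TAM it had a median of 0.868 and a lowest of 0.321. The genes outside the pathway lists whose profile was most like the mean of the 8 over 10 libraries, out of 10795 with a mean of at least 50 counts, were Sord, sorbitol dehydrogenase (r = 0.986), the F-box gene Fbxo9 (0.984), the cortical actin gene Cttn (0.978), Oxct1, which uses ketone bodies (0.978), and the alpha-actinin Actn4 (0.977). Sord had 109 and 97.0 normalized CPM in control, 158 and 164 in TAM short, 84.6 and 104 in DMBA, 88.0 and 92.7 in TAM long, and 25.9 and 26.4 in DMBA+TAM. Of these 5 genes Sord and Oxct1 were higher in TAM short than in control, and against control 5 of 5 were lower in DMBA+TAM, as the rule that chose them makes likely.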

How the data were processed

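RNA was sequenced by the authors from 10 organoid libraries in 5 groups of 2, aligned with TopHat 2.0.12 and counted per gene with HTSeq 0.6.1, per the study's methods; the labels name the build GRCm38.p6. The deposited table holds raw read counts and FPKM per library, FPKM being fragments scaled by transcript length and library size, as the authors computed it. It also holds the authors' own comparisons (fold changes and p-values), which were not used. How reads over several genes or over both strands were assigned is not given in the sources used here. Per-sample columns left unused numbered 0, and 5 lines without a gene ID were dropped.

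Counts were tested in R 4.3.3 with edgeR 4.0.16: genes kept by filterByExpr, TMM scaling, 5 group means in 1 quasi-likelihood fit of all 10 libraries, and Benjamini-Hochberg adjustment over 16179 genes with a threshold of 0.05. Adjusted p-values in the text are from this fit unless another is named. Fold changes carry the fit's shrinkage by its prior count, and FPKM served only to compare genes. Each SE was derived as the absolute log2 fold change over the square root of the quasi-likelihood F. The 95% intervals were built from that SE, and both are approximate, most of all at very low counts. DESeq2 1.42.0, library size scaling, no filter, a fit of only the groups compared, a block for the replicate number and each library left out in turn were tried, and an 8-library fit and a fold threshold were further settings. Scripts were tested on simulated counts. For TAM short against control, 41% of 2-fold and 72% of 4-fold changes were recovered, and 1.74% of calls were false. For DMBA+TAM against control these were 32%, 65% and 8.49%, so that many 2-fold changes would not pass. Promoters were read from RefSeq and exons from GENCODE M21, and figures drawn with Python 3.11.15 and matplotlib 3.10.9. Precision follows depth, from 1592366 to 10923673 counts per library.

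The 8 genes and the gene lists were chosen with earlier results of these data known, and a member of a list is no replicate of another. Named were the 8 genes, from each pathway list the 3 called genes of largest absolute log2 fold change in a comparison, all late sterol genes in TAM short against control and TAM long against DMBA, and the 5 genes most alike in profile. Other genes named (among them Pmvk, Acat2, Ggps1, Npc1l1 and the remaining called genes of a list) were chosen after their values were seen. Some genes of the lists count in the totals but are not reported here by name. The marker lists were taken from general knowledge of the cell types.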

Additional observations from a re-analysis of the deposited data

Results flagged for a closer look

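For 5 of the 8 genes the change from control to TAM short differed from the change from DMBA to TAM long by a test of the difference itself, the interaction term of the edgeR fit, which called 2.78% of all genes lower. The count was 0 without control replicate 1 or 2, TAM short replicate 1 or 2, or TAM long replicate 1, and 3 to 8 without each of the other libraries of the 4 groups. The difference, (TAM long minus DMBA) minus (TAM short minus control), was -2.35 for Fdps, -1.84 for Sqle, -1.62 for Hmgcs1, -1.56 for Cyp51 and -1.13 for Lss on the log2 scale, with adjusted p-values of 0.0213, 0.0219, 0.0304, 0.0322 and 0.0242. Each was positive in TAM short and between -0.64 and -0.09 in TAM long. Small intestine and colon markers, the agent given to the control libraries and the letter of the library names differ between the same pairs, and their part in the difference was not tested. Groups of 2 are too small for a search for single outlying libraries.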

How the results depend on the processing

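Directions in TAM short against control and in every comparison with DMBA+TAM held for the 8 genes in all settings run. Leaving out 1 library at a time gave 0 to 4 genes called in TAM short against control (0 without control replicate 2, 4 without TAM short replicate 1), 0 to 2 in DMBA against control, 0 in every case in TAM long against control, 5 to 6 in TAM long against TAM short, 7 to 8 in DMBA+TAM against control, and 0 to 8 in the interaction (8 without DMBA replicate 1). Log2 fold changes that changed sign then ranged, in TAM long against DMBA, from -0.47 to 0.30 (Hmgcs1), -0.50 to 0.037 (Sqle), -0.72 to 0.16 (Idi1), -0.23 to 0.075 (Lss), -0.64 to 0.15 (Cyp51) and -0.31 to 0.67 (Insig1). In DMBA against control they ranged from -0.065 to 0.69 (Hmgcs1), -0.13 to 0.19 (Sqle), -0.66 to 0.20 (Idi1), -0.011 to 0.28 (Lss), -0.34 to 0.44 (Cyp51), -0.48 to 0.48 (Insig1) and -0.52 to 0.029 (Ebp), and in TAM long against control from -0.063 to 0.49 (Hmgcs1), -0.45 to 0.084 (Sqle), -0.011 to 0.14 (Lss), -0.49 to 0.069 (Cyp51) and -0.0094 to 0.37 (Insig1).

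Scaling by library size only gave 3 genes called in DMBA against control, turned Idi1 (0.13) and Ebp (0.093) there and Sqle (0.16) and Cyp51 (0.14) in TAM long against control, and moved the median of all genes from 0.07 to 0.38 and from 0.05 to 0.37. Under it the share of calls that were higher went from 51.2% to 71.2% and from 50.5% to 72.1% in these, from 45.5% to 58.6% in TAM short against control, 52% to 69.9% in TAM long against TAM short, 45.1% to 62.5% in DMBA+TAM against control and 51.3% to 38.7% in the interaction. TAM long against control gave 2 genes with no filter, 2 with a fit of only the groups compared and 0 once an absolute log2 fold change of 1 was asked for, and the interaction gave 8 with no filter. Over all genes, calls went from 2317 to 4317 with a fit of only the groups compared and to 669 to 1057 without 1 library (TAM short against control), from 924 to 2025 with no filter and to 179 to 1618 without 1 library (interaction), and from 437 to 870 with DESeq2, 1615 with no filter, 29 with a fit of only the groups compared and 58 to 1036 without 1 library (TAM long against DMBA; 58 and 125 without TAM long replicate 1 and 2), so that the background share of this comparison depends on the setting. The cause was not tested.

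The correlation of deviations between replicate numbers ran from -0.032 to 0.2 and was over 0.1 in 1 of 10 pairs of groups. That pair was DMBA with TAM long (0.2), which are compared above. Replicate numbers thus did not pair the libraries elsewhere, and a weak pairing of these 2 groups is not excluded. With the replicate number as a block, 6 of the 8 genes were called in TAM short against control and 2322 of all genes. Low depth limits Fdps in DMBA+TAM, with 1 count in all.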

Other observations

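Of 10 genes of fatty acid synthesis, which SREBP also controls, 2 were higher and 1 lower in TAM short than in control, with a median log2 fold change of 0.39 against -0.04 over all genes, of which 6.52% were higher and 7.8% lower. Their summed level was 722.5 and 732 normalized CPM in control and 1448 and 1719 in TAM short, a difference that Scd2 made up in large part. Scd2, a desaturase, rose 7.86-fold, from 106 and 97.6 normalized CPM to 688 and 910.3, and was also high in DMBA (424 and 691) and TAM long (456 and 566). Acly, which makes cytosolic acetyl-CoA, rose 1.49-fold, and the malic enzyme Me1 fell 2.08-fold. Acly and Fasn, fatty acid synthase, were 2.54-fold and 2.42-fold higher in DMBA than in control, and lower in TAM long than in DMBA by 1.66-fold and 2.19-fold, with Fasn at 223 and 222 normalized CPM in DMBA, 108 and 96.2 in TAM long, and 94.4 and 89.7 in control.

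In DMBA+TAM against control, 4 of 10 LXR and efflux genes were higher and 6 lower, and 6 of 10 fatty acid synthesis genes higher and 2 lower, where 29% of all genes were higher and 35.3% lower. Abcg5 and Abcg8 had 0 counts in DMBA+TAM, at least 412-fold and 287-fold lower than control with 3 counts over the group as the floor, and Soat2 was 58.8-fold lower. Scd1, a desaturase abundant in fat cells, had 6070 and 2643 normalized CPM against at most 83.9 in the other 8 libraries, Abcg1, an exporter abundant in macrophages, 56.0 and 64.3 against at most 8.54, Abca1 457 and 449 against at most 113, and Soat1 119 and 120 against at most 66.9. Fat cell and macrophage markers were highest in the same libraries, and their part was not tested. Elovl6, an elongase, was 19.3-fold lower than in control (188.5 and 184 normalized CPM against 10.03 and 9.25).

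Over the 8 libraries other than DMBA+TAM, a choice made after seeing the data, the genes most like the mean of the 8 cholesterol genes included Fam63b (r = 0.985), Eif2ak3, which encodes the kinase PERK of the endoplasmic reticulum (0.979), Ets1 (0.976) and 6330416G13Rik (0.9748), none of which is among the 5 found over all 10 libraries. Ets1, which followed the cholesterol genes in those 8 libraries, was highest in DMBA+TAM (97.1 and 95.6 normalized CPM against at most 48.3).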
